A study of Homo sapiens with 27 samples.

Results

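ATP7A and 9 other genes that move, store or deliver copper were followed in UM 92.1 cells kept with or without a FAK inhibitor. The 10 genes were chosen by name from a count table of 61533 genes: the copper-exporting ATPases ATP7A and ATP7B, the importers SLC31A1 (CTR1) and SLC31A2 (CTR2), the chaperones ATOX1 and CCS, the regulator COMMD1, and the metallothioneins MT2A, MT1X and MT1E. ATP7A leads the set because it was selected on its higher level under the inhibitor on every day. Its FAKi and DMSO values are therefore given as a description without a test, and the tests below cover the other 9 genes. UM 92.1 is an established human uveal melanoma line that carries mutant GNAQ, so all groups are a single line in culture. The cells received DMSO or 100 nM VS-4718, an inhibitor of focal adhesion kinase (FAKi), and medium and treatment were renewed at fixed intervals. RNA was sequenced in 27 libraries from 9 groups of 3 replicates: a DMSO group at day 0, then both treatments on days 3, 7, 14 and 21. The study's methods describe both parallel wells and biological repeats of the whole experiment, and the labels do not say which of these a replicate number stands for. The p-values therefore measure the spread between these libraries.

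Copper is a cofactor of oxidases and at the same time toxic when free, so cells keep it bound at every step. SLC31A1 brings copper(I) across the plasma membrane. ATOX1 hands it to ATP7A and ATP7B, which pump it into the trans-Golgi network for secreted and vesicular enzymes and move toward the cell surface to export it when copper is high. CCS loads superoxide dismutase 1, COMMD1 takes part in the endosomal sorting of the copper ATPases, and metallothioneins bind surplus copper and zinc under the control of the metal-sensing transcription factor MTF1. In pigment cells ATP7A supplies copper to tyrosinase inside melanosomes, and its sorting there uses the BLOC-1 complex.

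The upstream sequences of 3 of the genes are shown because ATP7A leads the set and because the metallothionein promoters hold most of the metal response elements found in it. Each run is the 250 bases before the RefSeq start on the strand of the gene (GRCh38.p14), and capitals mark the motif matches described next.
ATP7A, chrX:77910443-77910692, plus strand: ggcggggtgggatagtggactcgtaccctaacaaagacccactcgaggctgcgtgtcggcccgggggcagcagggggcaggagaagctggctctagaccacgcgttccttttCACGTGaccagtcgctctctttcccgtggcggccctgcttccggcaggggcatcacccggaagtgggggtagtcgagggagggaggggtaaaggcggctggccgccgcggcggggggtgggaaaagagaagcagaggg
MT2A, chr16:56608334-56608583, plus strand: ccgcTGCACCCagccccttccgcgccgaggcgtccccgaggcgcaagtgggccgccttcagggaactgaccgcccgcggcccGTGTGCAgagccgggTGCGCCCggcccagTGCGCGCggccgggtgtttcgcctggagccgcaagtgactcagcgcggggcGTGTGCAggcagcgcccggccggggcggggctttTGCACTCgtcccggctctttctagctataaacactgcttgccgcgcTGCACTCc
MT1X, chr16:56682220-56682469, plus strand: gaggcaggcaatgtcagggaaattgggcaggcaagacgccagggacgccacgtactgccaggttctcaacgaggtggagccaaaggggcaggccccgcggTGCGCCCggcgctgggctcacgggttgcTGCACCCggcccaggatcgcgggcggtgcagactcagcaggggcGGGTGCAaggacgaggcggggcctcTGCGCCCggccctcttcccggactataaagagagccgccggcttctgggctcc

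In ATP7A the capitals mark 1 E-box (CACGTG, the core read by MITF, USF and related factors), which begins 138 bases before the start. In MT2A they mark 7 matches to the core of the metal response element (TGCACNC or TGCGCNC), and in MT1X they mark 4. Both strands were searched, and matches of different motifs may overlap. Of 35116 upstream windows of the same length, 6.34% held the E-box, 24.8% held at least 1 metal response element core, and 0.370% held 4 or more. No metal response element core or TEAD site core (GGAATG, present in 11.9% of windows) was found in the ATP7A window. Among the other genes with a window, 1 of 3 windows of ATP7B held 2 metal response element cores, the windows of ATOX1 and CCS held 2 each, and 2 of 3 windows of COMMD1 held 1 each. The TEAD site core was found once in the ATOX1 window and once in another window of ATP7B. A match is a run of letters and not a measured binding site. There were 12 windows for 8 of the 10 genes, with none for SLC31A2 and MT1E.

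Library totals ran from 12161994 to 43651551 counts. Of the melanocyte lineage markers, 7 of 7 averaged at least 1 CPM (counts per 1000000 counts of the library), among them PMEL and TYRP1, and their summed level was between 9365 and 15290 CPM. By the same measure 2 of 5 fibroblast markers (COL1A1 and LUM), 1 of 5 leukocyte markers (CD68) and 0 of 5 epithelial markers were present, and COL1A2, PTPRC and KRT5 averaged close to or at 0. PTK2, which encodes FAK, lay between 101 and 164 CPM in all libraries, so the inhibitor's target was transcribed throughout. A pair of libraries from different groups stood closer to each other than any replicates did: FAKi day 7 replicate 1 differed from FAKi day 14 replicate 1 by 0.175 (root mean square of log2 CPM over 15523 genes), against 0.199 to 0.721 between replicates of a group. DMSO day 0 replicate 3 and DMSO day 3 replicate 1 were 0.240 apart. Differences without these libraries are given after the main counts. Libraries also differed in the share of counts from mitochondrial genes (5.49% to 26.97%). On day 21 it was 5.49%, 5.49% and 9.75% in DMSO and 10.7% to 11.2% in FAKi. On day 3 it was 18.1%, 9.59% and 8.61% in DMSO and 16.8% to 18.7% in FAKi. On day 7 it was 17.05% to 19.3% in DMSO and 20.2% to 20.7% in FAKi, and the treatments overlapped on day 14. The part of this share was not tested beyond fits without mitochondrial genes. Libraries differed too in their balance of short and long transcripts. The gap between the median log2 deviation of 2687 transcripts of at most 1000 bases and that of 3923 transcripts of at least 5000 bases ran from -0.47 to 1.32, with the highest values in DMSO day 21 replicates 1 and 2.

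ATP7A (ENSG00000165240.22, hg38 chrX:77910739-78050395, plus strand) was counted over the 24 exons of a protein-coding transcript of 8501 bases, the longest in the set. On day 0 its level was 18.7, 18.8 and 20.8 CPM. On day 3 it was 22.2, 18.5 and 7.38 CPM in DMSO and 33.7, 49.0 and 38.2 CPM in FAKi. The 3 FAKi libraries were all above the 3 DMSO libraries, and the DMSO library at 7.38 stood well below the other two. On day 7 it was 19.6, 19.9 and 20.01 CPM in DMSO and 38.8, 26.8 and 30.1 CPM in FAKi. On day 14 it was 27.1, 32.0 and 31.0 CPM in DMSO and 41.4, 45.2 and 48.8 CPM in FAKi. Both of these days again separated the treatments with no overlap. On day 21 it was 6.41, 5.28 and 10.2 CPM in DMSO and 12.7, 15.4 and 21.7 CPM in FAKi. FAKi day 21 lay below all other FAKi libraries and DMSO day 21 below all DMSO libraries but that of day 3 at 7.38, and FAKi was still above DMSO in every library.

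**Figure D1:**
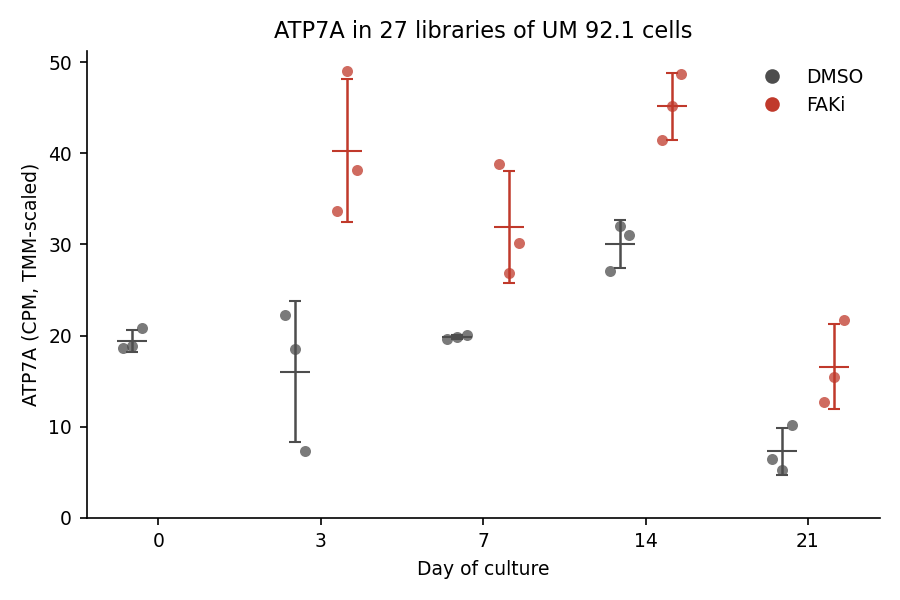
ATP7A level (CPM, scaled over all 27 libraries) by day of culture, with DMSO in grey and FAKi in red. Points are libraries and bars are the mean ± SD of 3 replicates. The FAKi libraries lie above the DMSO libraries on each of 4 days, and both groups are low on day 21 (DMSO 5.28 to 10.2 CPM, FAKi 12.7 to 21.7 CPM).

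As a ratio of group means, ATP7A was 2.51-fold higher in FAKi on day 3, 1.61-fold on day 7, 1.502-fold on day 14 and 2.27-fold on day 21. The fitted log2 fold changes were 1.35 ± 0.34 (SE), 0.69 ± 0.16, 0.58 ± 0.12 and 1.21 ± 0.30, with n = 3 against 3 on each day, and their mean over the 4 days was 0.95 ± 0.14. In order of group means, ATP7A was 45.1 ± 3.66 CPM (SD, n = 3) in FAKi day 14, 40.3 ± 7.89 in FAKi day 3, 31.9 ± 6.17 in FAKi day 7 and 30.1 ± 2.62 in DMSO day 14. These were followed by 19.8 ± 0.227 CPM in DMSO day 7, 19.4 ± 1.18 in DMSO day 0, 16.6 ± 4.63 in FAKi day 21, 16.04 ± 7.73 in DMSO day 3 and 7.31 ± 2.59 in DMSO day 21. Of these neighbours only DMSO day 14 and DMSO day 7 did not overlap in their libraries. Within each treatment the highest group mean of ATP7A was that of day 14 and the lowest that of day 21. In bulk RNA, fewer expressing cells and less RNA per cell cannot be told apart.

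Without FAKi day 7 replicate 1, the library close to a day 14 library, the day 7 difference of ATP7A was 0.53 on the log2 scale, and without FAKi day 14 replicate 1 the day 14 difference was 0.64. Without DMSO day 3 replicate 1 the day 3 difference was 1.66, and without DMSO day 3 replicate 3, the library with the low ATP7A value, it was 1.00.

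ATP7A was low where libraries leaned toward short transcripts. The short-minus-long gap was 0.66 in the DMSO day 3 library with 7.38 CPM of ATP7A, against -0.31 and 0.11 in the other DMSO libraries of that day and -0.40 to -0.32 in FAKi. The gap of day 21 was 1.32, 1.29 and 0.40 in DMSO and 0.68, 0.57 and 0.26 in FAKi. The DMSO library at 0.40 lay within the FAKi range of this gap and had 10.2 CPM of ATP7A. Its mitochondrial share of 9.75% was below the 10.7% to 11.2% of the FAKi libraries of that day. On days 7 and 14 the gaps of the treatments overlapped, from -0.47 to -0.08 in all 12 libraries. ATP7A was selected for its higher level under FAKi on every day, so its levels at similar gaps are a description. When every library was corrected for the length and GC content of its transcripts, a correction chosen after seeing the data, the FAKi minus DMSO difference of ATP7A was 1.04 on day 3, 0.69 on day 7, 0.82 on day 14 and 1.17 on day 21 on the log2 scale, and 0.87 as the mean over days. The length balance moved with the ATP7A level, and its part in the remaining difference was not tested.

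**Figure D2:**
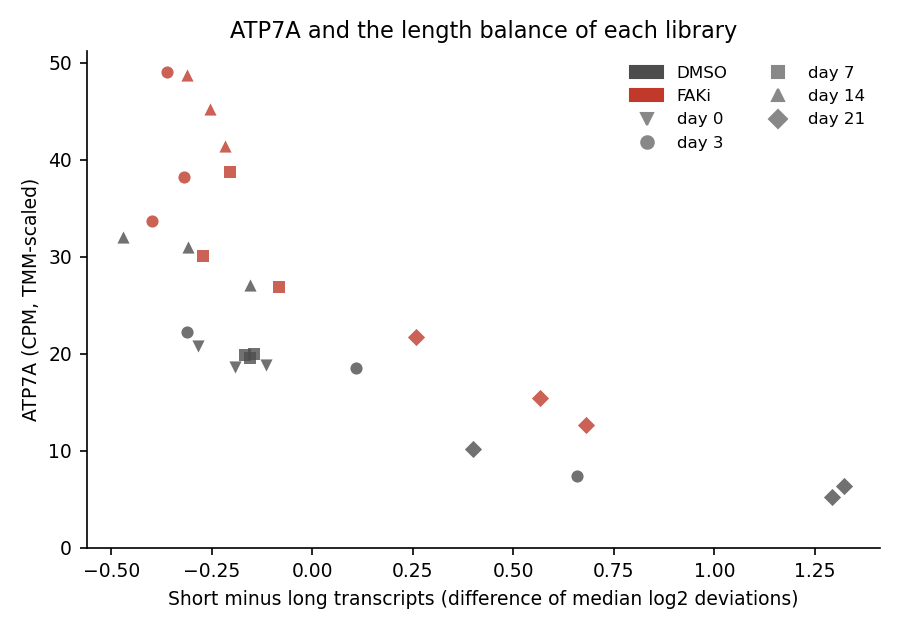
ATP7A level (CPM) against the short-minus-long gap of each of 27 libraries (difference of median log2 deviations, higher where short transcripts are over-represented), coloured by treatment and shaped by day. ATP7A falls toward the right. Left of 0 the FAKi points of days 7 and 14 lie above the DMSO points of the same day. For day 3 only replicate 1 of DMSO lies left of 0, below the FAKi points of that day.

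The genes whose levels followed ATP7A most closely were themselves long. Over the 27 libraries and 12710 genes, the highest Pearson correlations of log2 CPM with ATP7A were those of ETS1 (0.976), CEP192 (0.973), TACC1 (0.967), PRKD3 (0.965) and FAM126A (0.965). After subtracting the group means they were those of SLC5A3 (0.957), FAM126A (0.954), CEP192 (0.944), SAMD4A (0.938) and NNT (0.937). ETS1 is a transcription factor, CEP192 a centrosome scaffold, PRKD3 a kinase of the protein kinase D family, SLC5A3 a myo-inositol transporter and NNT a mitochondrial transhydrogenase. Their counted transcripts were 5120 to 11563 bases long. Within the set, the correlation with ATP7A was -0.911 for COMMD1, -0.817 for ATOX1, -0.717 for MT1X and -0.561 for MT2A. It was -0.16 for CCS, 0.00358 for SLC31A2, 0.199 for SLC31A1 and 0.408 for ATP7B. These are descriptions, since the 27 libraries share treatments, days and the length balance.

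Of the 9 other genes, 8 had enough counts to be tested. For each day, a call required an adjusted p no larger than 0.05 together with a log2 fold change beyond 1 in either direction, from edgeR's quasi-likelihood test and Benjamini-Hochberg adjustment over all genes. No gene of the 8 was called on day 3, when 0% of all genes tested were called. Of the 8, 2 (ATOX1 and COMMD1) had an unadjusted p under 0.05 by edgeR, beside 5442 of 22846 genes tested. DESeq2 also called 0 of the 8. By DESeq2 COMMD1 had an adjusted p of 0.0394 on day 3 at -0.71, short of the fold threshold. With that tool 1838 of 22846 genes passed by adjusted p. No gene of the 8 was called on day 7 against a background of 0.0269%, and DESeq2 again called 0. On that day 1 (SLC31A2) had an unadjusted p under 0.05 by edgeR, beside 1955 of 22299 genes tested. On day 14 the test called 1 of 8 (MT2A, higher) against 1.66% of all genes, and on day 21 it called 1 of 8 (MT2A, lower) against 5.28%. By the adjusted p alone, 1 of 8 passed on day 14 (background 12.4%) and 2 of 8 on day 21 (MT2A and COMMD1, background 11.6%). The mean effect over the 4 days passed for 1 of 8 (COMMD1, lower), with 15.7% of all genes passing. The effect differed between days for 2 of 8 (ATOX1 and MT2A), with 10.3% of all genes passing. Among DMSO groups alone, 7 of 8 changed over the course (all but SLC31A2), where 49.9% of all genes did.

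The libraries that stood close to another group moved some of these values. Without FAKi day 7 replicate 1 the day 7 differences were 0.50 for ATOX1 (adjusted p = 0.0511 by edgeR), 0.46 for SLC31A1 (0.0408), 0.69 for SLC31A2 (0.211) and 0.21 for COMMD1 (0.405). They were -0.24 for CCS (0.467), -0.15 for MT2A (0.731), -0.12 for MT1X (0.852) and -0.02 for ATP7B (0.968). COMMD1 and CCS thus changed sign, without passing. Without FAKi day 14 replicate 1 the day 14 difference of MT2A was 0.97 with an adjusted p of 0.214 by edgeR, and no other gene of the 8 had an adjusted p below 0.268. Without DMSO day 3 replicate 1 the day 3 differences of ATOX1 (-0.94, adjusted p = 0.00181), COMMD1 (-0.89, adjusted p = 0.00123) and SLC31A1 (0.45, adjusted p = 0.0402) passed the edgeR test by adjusted p alone, and none reached the fold threshold. The difference between days of COMMD1 then also passed (adjusted p = 0.0316 by edgeR), as it did without FAKi day 7 replicate 1 (0.0159). Without DMSO day 3 replicate 1 the mean difference of ATOX1 was -0.36 with an adjusted p of 0.0383 by edgeR. Without DMSO day 0 replicate 3 the course in DMSO was called for 6 of 8, with ATP7B lost (adjusted p = 0.0755 by edgeR).

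**Figure D3:**
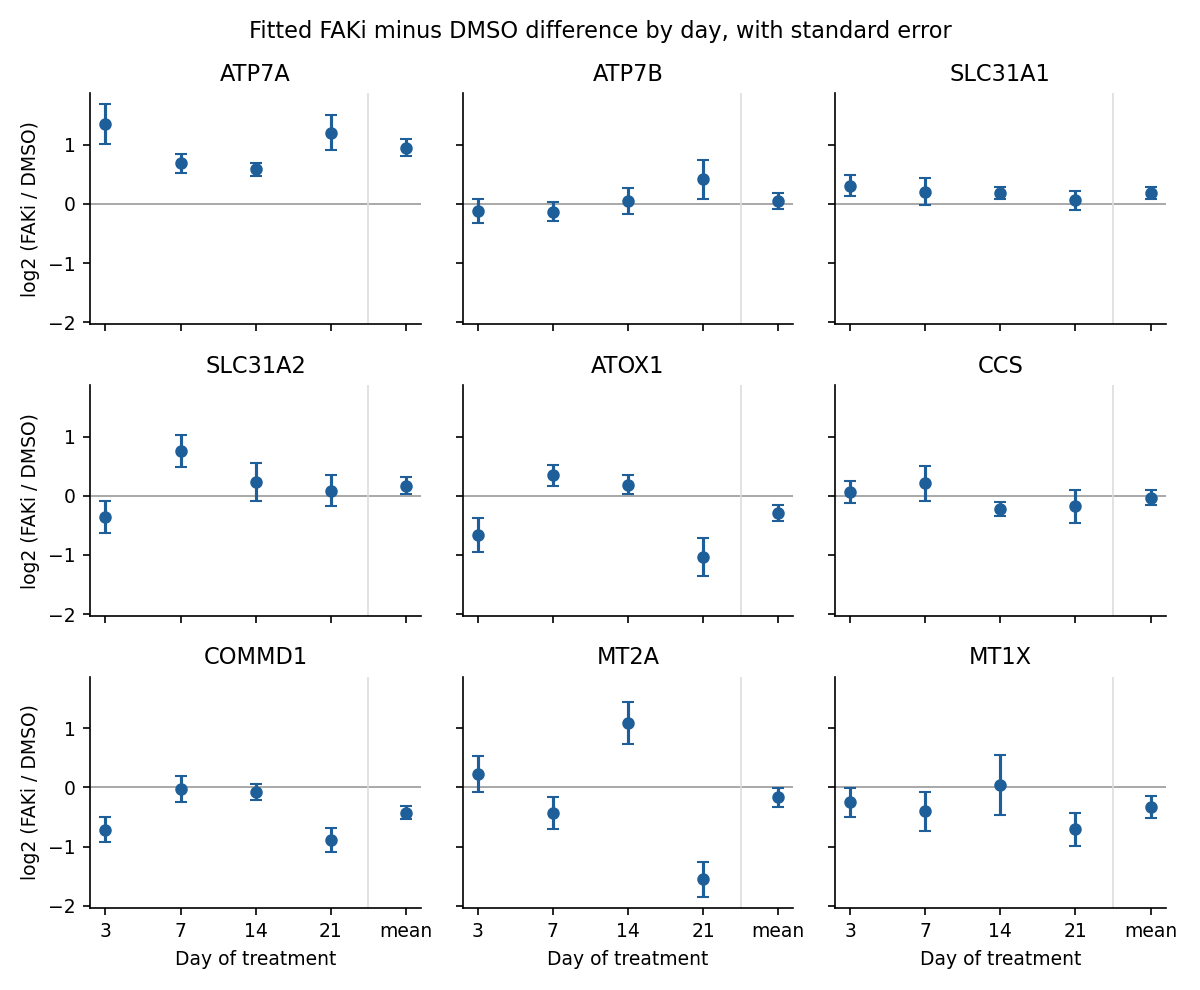
Fitted log2 ratio of FAKi to DMSO for ATP7A and the 8 other genes with enough counts, on days 3, 7, 14 and 21 and as the mean over days. Points are estimates and bars are standard errors. ATP7A lies above 0 on each day (0.58 to 1.35), COMMD1 and ATOX1 have their lowest values on days 3 and 21, and MT2A goes from 1.09 on day 14 to -1.55 on day 21.

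Levels between genes are compared per kilobase of the counted transcript, as means over 27 libraries. On that scale COMMD1 (64.7 ± 35.8 CPM per kb, SD) and CCS (29.9 ± 10.5) were highest, followed by SLC31A1 (12.6 ± 3.10), MT2A (9.93 ± 6.18) and ATOX1 (5.86 ± 4.26). ATP7A was at 2.96 ± 1.48, MT1X at 1.89 ± 0.884, ATP7B at 1.69 ± 0.432 and SLC31A2 at 1.40 ± 0.309 CPM per kb. The per-kilobase levels depend on which transcript was counted. MT2A and MT1X were each counted over a single-exon transcript with retained introns, 91.1% of the counted bases of ATOX1 lie outside its MANE transcript, and the counted COMMD1 transcript covers 22.0% of the bases of its MANE transcript.

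ATP7B (ENSG00000123191.16, chr13:51932669-52011450, minus strand), the second copper ATPase and the one known from liver, showed no difference under FAKi that passed a test. It was between 10.4 and 16.5 CPM in DMSO and between 10.8 and 12.8 CPM in FAKi on day 3. By day 21 it was 5.27, 4.77 and 11.3 CPM in DMSO and 8.45, 9.09 and 10.6 CPM in FAKi, so that the groups overlapped. Its log2 fold changes were between -0.13 (day 7) and 0.42 (day 21), none with an adjusted p below 0.398 in edgeR's quasi-likelihood test, and the mean over days was 0.05 with a 95% interval of -0.22 to 0.33.

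SLC31A1 (ENSG00000136868.11, chr9:113221544-113264492, plus strand), the main copper importer, was between 41.4 and 90.3 CPM. Its log2 fold changes under FAKi were 0.31, 0.20, 0.18 and 0.06 on days 3, 7, 14 and 21, and the groups overlapped on every day. The mean was 0.19 ± 0.09 (SE, 95% interval -0.01 to 0.38), with an adjusted p of 0.188 in edgeR's quasi-likelihood test. Without FAKi day 7 replicate 1, which had 45.2 CPM beside 81.8 and 90.3 in its group, the SLC31A1 difference was 0.46 on day 7 and 0.25 as the mean, with adjusted p of 0.0408 and 0.0271 by edgeR, so that the mean then passed. SLC31A2 (ENSG00000136867.11, chr9:113151030-113164137, plus strand), a relative of the importer that sits on endosomes and lysosomes, had few counts, at 1.42 to 3.33 CPM. On day 7 it was 1.42, 1.70 and 2.31 CPM in DMSO and 3.33, 3.08 and 2.76 CPM in FAKi, without overlap. That difference of 0.76 ± 0.26 (SE) did not pass the adjustment (edgeR adjusted p = 0.470). The share of all genes without overlap on that day was not counted. Of the counted bases of SLC31A2, 90.2% overlap FKBP15 on the opposite strand. The strand setting of the counting is not given in the sources used here, so reads of the 2 genes may not be separated.

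ATOX1 (ENSG00000177556.12, chr5:151742316-151752426, minus strand), the chaperone that hands copper to ATP7A, differed in its FAKi effect between days (adjusted p = 0.0446, edgeR's quasi-likelihood test of the interaction). On day 3 it was 16.1, 26.6 and 40.4 CPM in DMSO and 16.2, 17.4 and 17.8 CPM in FAKi. On day 21 it was 79.9, 87.7 and 33.2 CPM in DMSO and 39.1, 31.4 and 25.9 CPM in FAKi. On day 3, 1 DMSO library lay just under the FAKi libraries and the other two above them, and on day 21, 1 DMSO library fell within the FAKi range and the other two above it. The log2 fold changes were -0.67, 0.35, 0.19 and -1.03 in day order, and the day 21 value had an adjusted p of 0.0713 by edgeR. Its high libraries were those with a high short-minus-long gap. With the length and GC correction the day 21 difference was -1.25 and the difference between days passed (adjusted p = 0.0405 by edgeR). That correction used the counted length of 4336 bases, while the MANE transcript of ATOX1 has 471 bases. It therefore cannot decide the part of the length balance, which was not tested further. The call for a difference between days was lost with the replicate block (adjusted p = 0.0691 by edgeR) and with upper quartile scaling (0.0524), and held in 6 other alternatives. It held in 6 of 24 fits that each left out a library. It was lost in the other 18, with adjusted p up to 0.106. The 6 libraries without which it held were replicates 1 and 3 of DMSO day 3, replicate 1 in each of DMSO day 14, FAKi day 7 and FAKi day 21, and replicate 3 of DMSO day 21.

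CCS (ENSG00000173992.9, chr11:66593201-66605998, plus strand), which delivers copper to superoxide dismutase 1, showed no difference under FAKi that passed a test, and its intervals were wide. Its log2 fold changes were 0.06, 0.21, -0.22 and -0.18 in day order, with a mean of -0.04 and a 95% interval of -0.30 to 0.23. In FAKi day 7 its libraries were at 50.5, 27.9 and 19.7 CPM, and the highest of these is replicate 1, without which the day 7 difference was -0.24. In DMSO it was 20.9 to 30.7 CPM up to day 7 and 44.1 to 54.2 CPM on day 14.

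COMMD1 (ENSG00000173163.11, chr2:62000979-62147247, plus strand), which takes part in the sorting of the copper ATPases, fell under FAKi as a mean over the 4 days by 0.43 on the log2 scale (SE 0.11, adjusted p = 0.00880, edgeR's quasi-likelihood test), in the opposite direction to ATP7A. On day 3 it was 43.1, 55.0 and 77.97 CPM in DMSO and 35.6, 33.4 and 36.8 CPM in FAKi. On day 21 it was 127, 133 and 83.3 CPM in DMSO and 72.99, 60.3 and 49.2 CPM in FAKi. On these days every FAKi library was below every DMSO library. The share of all genes that separate in this way was not counted. On days 7 and 14 the groups overlapped and the differences were -0.03 and -0.08. Without FAKi day 7 replicate 1, at 29.0 CPM, the other two FAKi libraries of day 7 (51.2 and 55.2 CPM) lay above the DMSO libraries (43.9, 48.9 and 46.0 CPM), with a difference of 0.21. The day 21 difference of -0.89 ± 0.21 (SE) had an adjusted p of 0.0330 by edgeR and did not reach the fold threshold. Its adjusted p by edgeR was 8.73e-07 without DMSO day 21 replicate 3. Without any other library of the day it never passed, with values up to 0.149. The day 3 difference of -0.71 had an adjusted p of 0.111 by edgeR and 0.0394 by DESeq2. The mean effect passed in 24 of 24 fits without a library and in the 8 other alternatives, among them the length and GC correction (-0.40, adjusted p = 0.00587 by edgeR). COMMD1 is a short counted transcript of 780 bases. The short-minus-long gap of day 3 was -0.40 to -0.32 in FAKi and -0.31 to 0.66 in DMSO. That of day 21 was 0.26 to 0.68 in FAKi and 0.40 to 1.32 in DMSO, and the gaps of days 7 and 14 overlapped. The part of the length balance in these values was not tested beyond the corrected fit. Of its counted bases 68.5% overlap another gene on the same strand and 9.43% overlap a gene on the opposite strand, so its counts may hold reads of a neighbour.

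MT2A (ENSG00000125148.7, chr16:56608595-56609497, plus strand), a metallothionein that binds zinc and copper, changed in opposite directions on days 14 and 21. On day 14 it was 2.30, 1.04 and 1.497 CPM in DMSO and 3.99, 3.39 and 2.92 CPM in FAKi, and on day 21 it was 21.5, 24.7 and 10.7 CPM in DMSO and 7.79, 5.95 and 5.34 CPM in FAKi. The groups did not overlap on either day, with FAKi higher on day 14 and lower on day 21. How common such separation is among all genes was not counted. The log2 fold changes were 1.09 ± 0.35 (SE, adjusted p = 0.0480) and -1.55 ± 0.30 (adjusted p = 0.0201) by edgeR's quasi-likelihood test. The test of a difference between days gave an adjusted p of 0.00457 by edgeR, and it passed in 24 of 24 fits without a library. The daily calls were less stable. Among fits that left out 1 library of the day, the day 14 call held only without DMSO day 14 replicate 1 and was lost in each of the 5 others (adjusted p 0.0146 to 0.214, difference 0.85 to 1.43). The day 21 call held only without DMSO day 21 replicate 3 and was lost in each of the 5 others (adjusted p up to 0.111, difference -1.83 to -1.32). With the length and GC correction the day 14 difference was 1.01 with an adjusted p of 0.0587 by edgeR. The day 21 difference was then -1.52 with an adjusted p of 0.00762 by edgeR. That correction used the counted length of 902 bases, while the MANE transcript of MT2A has 401 bases. It therefore cannot decide the part of the length balance. DMSO day 21 replicates 1 and 2, the highest MT2A values, were also the libraries with the highest short-minus-long gap, whose part was not tested further.

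MT1X (ENSG00000187193.9, chr16:56682470-56684196, plus strand), a second metallothionein, was at 0.599 to 7.26 CPM. Its day 21 levels were 7.26, 6.82 and 4.03 CPM in DMSO and 4.44, 3.79 and 2.76 CPM in FAKi, which overlapped, with a difference of -0.70 and an adjusted p of 0.123 in edgeR's quasi-likelihood test. On day 14 its difference was 0.04 with a 95% interval of -1.01 to 1.10. MT1E (ENSG00000169715.15, chr16:56625475-56627112, plus strand) had 1 count in all, in a day 0 library, and was not tested. The 26 libraries without a count allow up to 0.068 to 0.223 CPM at 3 counts each. Metallothionein genes are near-identical copies, and how reads that match several genes were counted is not given in the sources used here, so the levels of MT2A, MT1X and MT1E are uncertain.

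**Figure D4:**
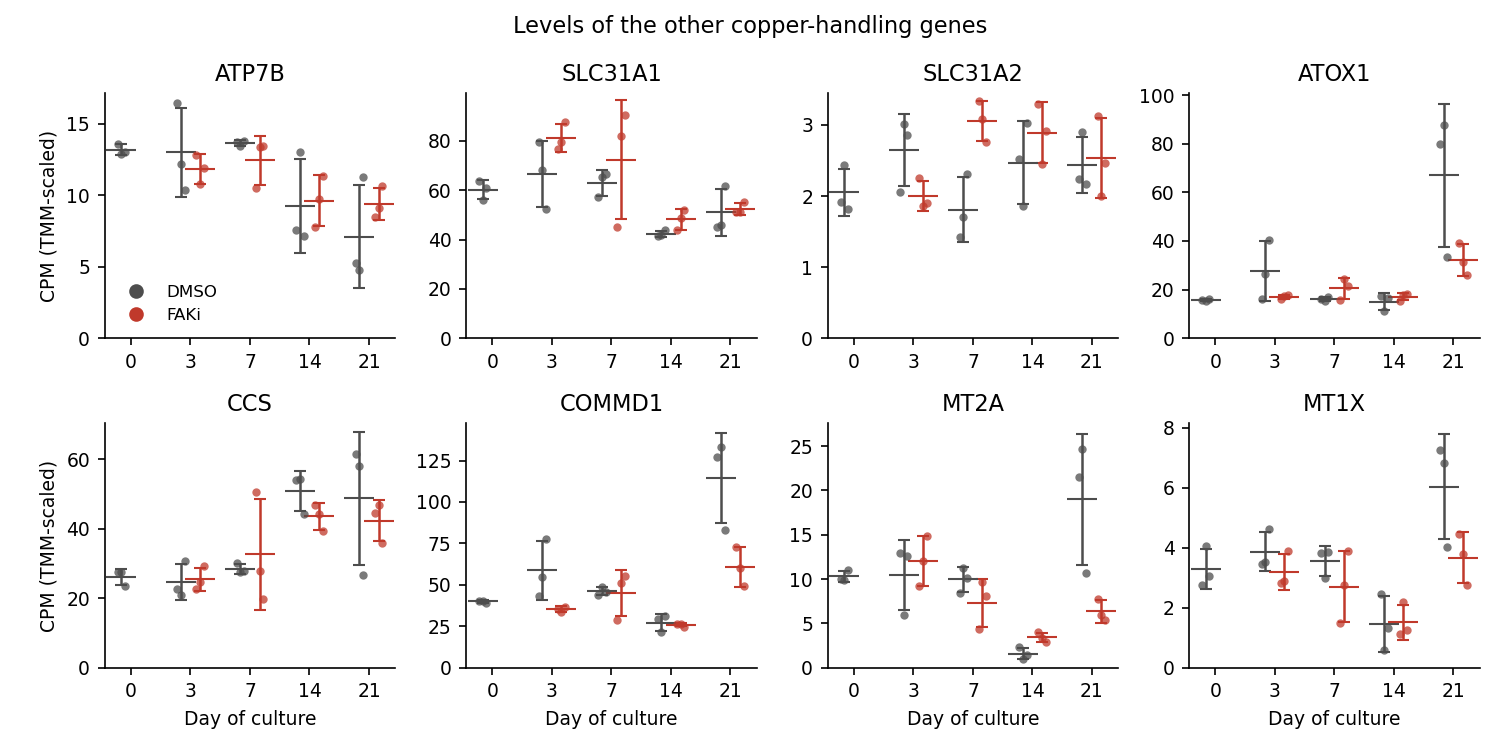
Levels (CPM) of 8 genes by day of culture, with DMSO in grey and FAKi in red, points for libraries and bars for the mean ± SD of 3 replicates. Each panel has its own axis from 0. ATOX1, COMMD1, MT2A and MT1X are highest in DMSO day 21, where 2 of the 3 libraries stand above the third.

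In DMSO alone the genes also changed with time in culture. Among the 8 tested genes, the smallest adjusted p for any difference among the 5 DMSO groups was that of COMMD1 (1.25e-05), followed by MT2A (2.53e-05) and ATOX1 (6.20e-05), all by edgeR's quasi-likelihood test. MT2A in DMSO went from 9.90 to 11.1 CPM on day 0 to 1.04 to 2.30 CPM on day 14 and 10.7 to 24.7 CPM on day 21. CCS had an adjusted p of 0.00122, MT1X of 0.00383, SLC31A1 of 0.0152, ATP7B of 0.0490 and SLC31A2 of 0.439 in the same edgeR test. ATP7B did not pass with the replicate block (adjusted p = 0.0887 by edgeR), with the length and GC correction (0.0872) or in 11 of 15 fits that left out a library. SLC31A1 did not pass in 2 of those 15 fits, without DMSO day 14 replicate 1 or 2. ATP7A in DMSO, given as a description, was highest on day 14 and lowest on day 21.

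The wider copper pathway was described with 95 further genes from lists that were put together with earlier results of these data known. None was called on day 3 (81 tested), day 7 (81 tested) or day 14 (83 tested) by edgeR's quasi-likelihood test, and 4 of 84 were called on day 21, all lower in FAKi, when 5.28% of all genes were called. The median log2 fold change of the 84 was -0.28 on day 21, against 0.01 over all genes. These medians were not matched for transcript length. The short-minus-long gap of that day was 1.32 and 1.29 in DMSO replicates 1 and 2 and 0.26 to 0.68 in FAKi. The part of the length balance in the median was not tested. As a mean over days 15 of 87 passed, 4 higher and 11 lower, beside 15.7% of all genes, and 14 of 87 differed between days, beside 10.3% of all genes. The share called on day 21 and that passing as a mean were near the background.

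The 4 called genes have different roles. STEAP3, a metalloreductase that can reduce copper and iron, was 10.4 to 13.1 CPM in DMSO and 4.44 to 5.63 CPM in FAKi on day 21 (log2 fold change -1.19 ± 0.19, adjusted p = 0.00984, edgeR's quasi-likelihood test). SOD3, the secreted copper and zinc superoxide dismutase that receives its copper through ATP7A, was 92.6 to 106 CPM in DMSO and 38.9 to 40.7 CPM in FAKi (-1.32 ± 0.12, adjusted p = 0.00257 by edgeR). LOXL2, a copper-dependent lysyl oxidase, was 2.61 to 3.52 CPM in DMSO and 1.29 to 1.45 CPM in FAKi (-1.11 ± 0.26, adjusted p = 0.0317 by edgeR). COX17, which carries copper to cytochrome c oxidase, was 14.2 to 36.8 CPM in DMSO and 9.48 to 12.8 CPM in FAKi (-1.34 ± 0.32, adjusted p = 0.0361 by edgeR). The groups did not overlap in any of the 4, which were named because they were called on this day. The separation is therefore a description and adds no support. COX17 is a counted transcript of 423 bases and SOD3 of 1413 bases, while STEAP3 has 4248.

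TYR encodes tyrosinase, the copper enzyme of melanin synthesis that ATP7A supplies, and it belongs to the melanocyte marker list. It was 191 to 213 CPM in DMSO and 238 to 260 CPM in FAKi on day 3. The corresponding ranges were 301 to 323 and 444 to 459 CPM on day 7, 301 to 347 and 457 to 499 CPM on day 14, and 224 to 277 and 467 to 470 CPM on day 21. The FAKi range lay above the DMSO range on all 4 days, and TYR was singled out after these values were seen. How many of all genes separate in this way was not counted. The summed melanocyte markers, TYR among them, were also higher in FAKi on days 7, 14 and 21. They were 12280 to 14380 CPM in FAKi and 11200 to 11710 CPM in DMSO on day 7. The ranges were 12220 to 12720 and 9365 to 10110 CPM on day 14, and 14950 to 15290 and 11730 to 13980 CPM on day 21. The day 3 ranges overlapped. PMEL and TYRP1 averaged 4939 and 5552 CPM over the libraries and TYR 320 CPM, so the sum mainly reflects PMEL and TYRP1. The other markers were not compared singly between treatments. The mean TYR difference over the 4 days was 0.60 ± 0.06 on the log2 scale with an adjusted p of 1.90e-07 in edgeR's quasi-likelihood test. TYR was singled out on these same values, so its p-values are not separate from that choice. The daily differences were 0.33, 0.52, 0.60 and 0.95, none past the fold threshold, with adjusted p of 0.200, 0.268, 0.000211 and 0.00723 by edgeR. Its counted transcript has 2053 bases, in neither of the length classes of the gap.

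The counts by list below are to be read against 5.28% of all genes called on day 21 and 15.7% passing as a mean. The copper enzymes had 2 of 14 tested genes called on day 21 (SOD3 and LOXL2, lower) and 5 of 17 passing as a mean over days, of which TYR and ceruloplasmin (CP, 0.54) were higher. The uptake genes and metal reductases had 1 of 6 called on day 21 (STEAP3) and 2 of 6 passing as a mean, with SLC11A2, a divalent metal importer, higher by 0.50 on the log2 scale. Chaperones and mitochondrial copper delivery genes, ATOX1 and CCS among them, had 1 of 13 called on day 21 (COX17), and 2 of 13 were lower as a mean (COX11 and SLC25A3). Of the COMMD proteins and their retromer partners, with COMMD1 included, 0 of 17 were called on a day and 5 of 17 passed as a mean, 4 lower and 1 higher (CCDC93). The BLOC-1 and AP-1 subunits, which take part in sorting ATP7A, had 0 of 13 called on a day and 1 of 13 lower as a mean (AP1S1). Of 5 glutathione and glutaredoxin genes, 12 lipoylation and copper-sensitive mitochondrial genes and the pair of MTF1 and the zinc exporter SLC30A1, 0 passed as a mean, and of 4 copper-binding kinases 1 did (MAP2K2, lower). MTF1 and SLC30A1 had mean differences between -0.25 and 0.08. Of 11 metallothioneins 5 had enough counts in the fit over days, and 0 passed as a mean.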

How the data were processed

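The deposited table holds raw read counts per gene that the authors made with HOMER over the exons of 1 transcript per gene (GENCODE 39, hg38), after adapter removal with Trim Galore, quality checks with FastQC 0.11.8 and alignment with STAR 2.5.3a. The library kit keeps strand, but the strand setting and the handling of multi-mapping reads are not given in the sources used here. Samples were grouped by their labels. The 10 genes, the gene lists and the tests were chosen with earlier results of these data known.

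Genes with at least 20 counts in the libraries of a fit were tested with edgeR 4.0.16 (quasi-likelihood, TMM, limma 3.58.1, R 4.3.3) and Benjamini-Hochberg adjustment, with 6 libraries per day, 24 for the mean effect and the difference between days, and 15 for the DMSO course. The last 3 tests call at an adjusted p of at most 0.05. CPM values were scaled by TMM over all 27 libraries. Alternatives used other scalings, filters, tools (DESeq2 1.42.0) and corrections, or left out a library. The text names the 10 genes, pathway genes called on a day, and the 5 genes that correlate most with ATP7A over libraries and within groups (mean of at least 5 CPM). TYR, a marker, and the pathway genes that passed only as a mean over days were singled out after their values were seen, and the length and GC correction (a loess fit per library) was added then too. Scripts were tested on simulated data. Intervals cover the spread between libraries, and the limit at 0 counts covers counting error only.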

Additional observations from a re-analysis of the deposited data

Results flagged for a closer look

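The FAKi effect on 2 of the 8 tested genes differed between days by the interaction test (edgeR's quasi-likelihood test, 24 libraries). For MT2A the adjusted p was 0.00457, with log2 fold changes of 0.22, -0.43, 1.09 and -1.55 on days 3, 7, 14 and 21. For ATOX1 the adjusted p was 0.0446, with log2 fold changes of -0.67, 0.35, 0.19 and -1.03 on the same days. The ATOX1 call was lost with the replicate block (adjusted p = 0.0691 by edgeR), with upper quartile scaling (0.0524) and in 18 of 24 fits that left out a library. The MT2A call held in all of these. Over all genes 10.3% passed this test.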

How the results depend on the processing

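ATP7A was selected for its higher level under FAKi on every day, so its values under alternatives are a description. On day 14 its difference was 0.82 with the length and GC correction, with or without the replicate block, against 0.58. Leaving out a library gave 1.00 to 1.66 on day 3, 0.53 to 0.80 on day 7, 0.51 to 0.64 on day 14, 0.96 to 1.54 on day 21 and 0.87 to 1.04 as the mean. Of the 8 other genes none was called on day 3 or 7 under any alternative run. On day 14 the count was 0 instead of 1 with upper quartile scaling, in a single fit of the 27 libraries and under the length and GC correction. On day 21 it was 2 instead of 1 without a count filter, by DESeq2, in the single fit, by adjusted p alone and with the length and GC correction plus the replicate block. The mean effect was called for 2 without a count filter, and the difference between days for 1 with upper quartile scaling and with the replicate block (ATOX1 lost) and for 3 without a count filter (COMMD1 gained). The DMSO course was called for 6 instead of 7 with the replicate block and with the length and GC correction (ATP7B lost). Leaving out a library gave counts of 0 to 1 on day 14, 0 to 3 on day 21, 1 to 2 for the mean, 1 to 4 for the difference between days and 5 to 7 for the DMSO course. The causes were not tested.

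Of 768 fold changes of the 8 genes under alternatives, 740 kept their sign and 28 did not, none of them with an adjusted p of at most 0.05. With the length and GC correction MT1X on day 14 was -0.0083, SLC31A1 on day 21 -0.10 (the same with the replicate block), SLC31A2 on day 21 -0.026 (-0.018 with the block) and the mean of CCS 0.055. Without 1 library the ranges that crossed 0 were -0.26 to 0.094 (ATP7B), -0.047 to 0.24 (CCS) and -0.056 to 0.40 (MT2A) on day 3, and -0.24 to 0.47 (CCS) and -0.19 to 0.21 (COMMD1) on day 7. They were -0.10 to 0.38 (ATP7B), -0.23 to 0.026 (COMMD1) and -0.33 to 0.64 (MT1X) on day 14, and -0.46 to 0.011 (CCS), -0.033 to 0.24 (SLC31A1) and -0.079 to 0.23 (SLC31A2) on day 21. As a mean they were -0.0012 to 0.18 (ATP7B) and -0.15 to 0.030 (CCS).

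Replicate numbers were checked as pairs by the correlation of same-numbered deviations. On day 21, over genes with at least 20 counts in all, it was 0.213, 0.0556 and 0.405, so the samples were not treated as paired. A second filter, at least 10 counts in every library, was tried after these values and the blocked calls had been seen and gave 0.420, 0.159 and 0.634. The first filter was kept. With the replicate block on day 21 the differences were -1.48 for MT2A (adjusted p = 0.000494), -0.88 for COMMD1 (0.000692), -0.94 for ATOX1 (0.00324) and -0.68 for MT1X (0.0254) by edgeR. No other day was paired under either filter. The study's methods name biological repeats of the experiment, but the labels do not tie the replicate numbers to them.

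Over all genes the number called on day 3 was 0, against 1181 without a count filter, 755 by DESeq2, 802 in the single fit and 2765 without DMSO replicate 1. On day 7 it was 6, against 220, 102 and 69 in the same order, 0 with the replicate block and 248 without FAKi replicate 1. On day 14 it was 388, against 632 in the single fit. On day 21 it was 1226 (598 higher, 628 lower), against 1913 without a count filter, 1954 in the single fit, 2076 with the replicate block (1285 higher, 791 lower), 2012 with the block and the correction, 52 without FAKi replicate 2 and 4248 without DMSO replicate 3. For the mean it was 4371, and 6849 without DMSO day 21 replicate 3. For the difference between days it was 2881, against 4831 without a count filter, 5219 by DESeq2 and 1574 to 6046 without a library. SLC31A2 and MT1X had few counts, which limits what could be detected for them.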

Other observations

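STEAP3, a metalloreductase of endosomes, was called on day 21, and its levels on the other days were as follows. It was 9.47 to 11.9 CPM in DMSO and 2.75 to 4.64 CPM in FAKi on day 3, and 7.20 to 8.82 CPM in DMSO and 1.79 to 5.07 CPM in FAKi on day 7, without overlap, but neither difference passed (adjusted p = 0.0945 and 0.340 in edgeR's quasi-likelihood test). How many of all genes separate in this way was not counted. On day 14 the groups overlapped, at 2.49 to 3.29 CPM in DMSO and 1.83 to 3.04 CPM in FAKi (-0.33, adjusted p = 0.621 by edgeR). Its mean difference over the 4 days was -1.03 on the log2 scale, with an adjusted p of 1.56e-05 in edgeR's quasi-likelihood test. That mean includes the day 21 values for which STEAP3 was named, so the p-value is not separate from that choice.

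Within the COMMD and retromer list, the genes that passed as a mean over days beside COMMD1 were COMMD5 (-0.28), COMMD6 (-0.45) and CCDC22 (-0.39), all lower, and CCDC93 (0.29), which was higher. CCDC22 and CCDC93 are partners in the same complex and differed in direction.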
